A study of Mus musculus with 2 samples.

Results

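Dopamine and adrenergic receptors are the proteins through which the catecholamines act in the prefrontal cortex (PFC). The 9 genes examined were Drd1, Drd2, Drd4 and Drd5 for dopamine, and Adra1a, Adra1b, Adra2a, Adra2c and Adrb1 for noradrenaline and adrenaline. They were picked by symbol out of 37069 gene names on the array, and 11 probes covered them. RNA came from the PFC of male C57Bl/6 N sea mice that were 9 to 10 weeks old when the experiment began. Control mice (C group) lived in group cages with ordinary care. Mice of the CMS group were caged singly and exposed to chronic mild stress, a changing program of mild stressors, for 4 weeks, so that single caging and stressors cannot be told apart. The design text describes 1 RNA pool of 7 mice per group, whereas the methods assign 10 mice per group to arrays and qRT-PCR. Each pool was read by 1 Agilent array. There were no replicates, and no test between the groups could be made.

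All 9 receptors act through G proteins. Drd1, Drd5 and Adrb1 couple to Gs, which stimulates adenylyl cyclase and raises cyclic AMP. Drd2, Drd4, Adra2a and Adra2c couple to Gi, which inhibits the cyclase, and Adra1a and Adra1b couple to Gq, which activates phospholipase C. In the PFC, dopamine from the midbrain and noradrenaline from the locus coeruleus tune the firing of pyramidal neurons during working memory and stress, with Drd1 and Adra2a the receptors best known for this.

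The bases before the start of 3 receptors are shown because these genes gave the highest log2 ratio of CMS over C, that of Drd2, and the lowest, those of Adra2a and Adrb1. The arrays measured transcripts and not these sequences. They run 5′ to 3′, lie outside the annotated gene and come from RefSeq. Capitals mark a GC box (GGGCGG, or CCGCCC on the other strand) or a TATA box (TATAAA, or TTTATA on the other strand).
Drd2 (GRCm38.p6, chr9:49340153-49340359, plus strand): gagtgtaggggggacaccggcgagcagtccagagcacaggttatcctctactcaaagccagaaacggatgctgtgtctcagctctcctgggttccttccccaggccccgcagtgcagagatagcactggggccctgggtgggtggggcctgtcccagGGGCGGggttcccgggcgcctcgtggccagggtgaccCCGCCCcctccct
Adra2a (GRCm38.p6, chr19:54045009-54045258, plus strand): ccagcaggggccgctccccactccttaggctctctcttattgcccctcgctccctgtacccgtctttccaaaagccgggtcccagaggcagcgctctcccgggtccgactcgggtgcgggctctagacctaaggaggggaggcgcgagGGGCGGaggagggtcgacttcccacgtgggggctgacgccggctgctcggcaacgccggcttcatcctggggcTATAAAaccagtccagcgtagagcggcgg
Adrb1 (GRCm38.p6, chr19:56721867-56722116, plus strand): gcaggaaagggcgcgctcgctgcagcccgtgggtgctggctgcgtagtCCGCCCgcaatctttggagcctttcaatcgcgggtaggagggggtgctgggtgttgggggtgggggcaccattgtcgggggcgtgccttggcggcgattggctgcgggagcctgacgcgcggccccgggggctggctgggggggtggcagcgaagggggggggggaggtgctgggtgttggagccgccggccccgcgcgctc

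RefSeq windows from 250 bases before to 50 bases after a start were matched for 8 of the 9 receptors, 10 windows in all, with Adra1a the gene without one. A GC box on either strand was found in 8 of the 10, beside 35.7% of 32851 such windows over all genes. TATAAA on either strand was found in 1 of the 10, that of Adra2a, beside 13.6% of all windows. The cyclic AMP response element TGACGTCA was found in 0 of the 10, beside 1.79% of all, which says only that these letters are not in these windows. No marked motifs overlap in the sequences printed. Bases G and C made up 70.3% of the window of Drd2, 68.7% of that of Adra2a and 72.3% of that of Adrb1, with a median of 52.7% over all windows. The windows of Adra1b held 42.3% and 71.3%.

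Signals are on a scale with a mean of 2500 per array, and ± is the error that the scanner software gives for the spot. Each receptor probe had 1 spot per array. The software marks spots that are well above background, and the lowest such signal was 17.8 for C and 17.6 for CMS. On the C array 65.2% of spots were well above background, on the CMS array 65.9%, and 0 were saturated. A ratio was taken for each gene well above background on at least 1 array. It is a bound only where the other array's signal fell below that array's lowest signal well above background. A gene was counted as past a limit at 2-fold, the limit used by the study, and at 1.5-fold. Where a probe had several spots, the SD of the log2 ratio between them was 0.13 (342 probes). It was 0.26 for mean signals under 100, 0.10 between 100 and 1000, and 0.06 at 1000 or more. Only spots well above background on both arrays entered this SD, and outlier spots were left out. Spots like that of Drd2 in C are thus not covered by it. These errors leave out the spread between mice. A probe's brightness also depends on its sequence, so the levels of different receptors were not ranked.

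No receptor had a ratio past 2-fold, although that of Drd2 used a C signal not well above background. Over all 27119 gene names with a ratio, 1.99% were past 2-fold higher in CMS and 0.59% past 2-fold lower. Drd2 was the receptor past 1.5-fold, 1.73-fold higher in CMS, beside 3.71% of all genes past 1.5-fold higher. The 2.09% of genes past 1.5-fold lower held 0 receptors. The log2 ratio was above 0 for 4 receptors and below 0 for 5 (3 and 6 without scaling of the arrays), while 41.2% of all genes were above 0. The median over the 9 was -0.12, beside -0.03 over all genes. Of the 9, 8 were well above background on both arrays.

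**Figure D1:**
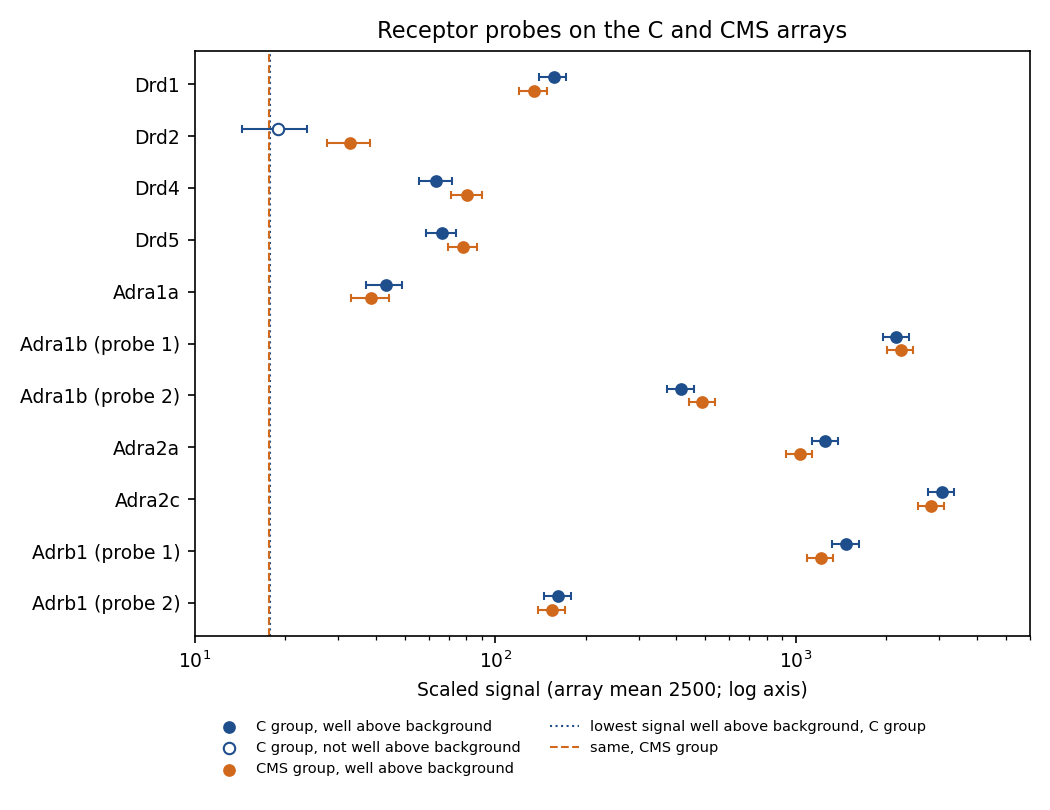
Scaled signal on a log axis of each of the 11 receptor probes in the C group (blue) and the CMS group (orange), with 1 spot per point and the scanner software's error as the bar. The vertical lines are the lowest signals well above background, 17.8 and 17.6, and Drd2 in C, at 19.0, is the only open point.

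Of the Gs-coupled dopamine receptors, Drd1 had the lower signal in CMS and Drd5 the higher. Drd1 (NM_010076), the main dopamine receptor of cortical pyramidal neurons and of striatal direct-pathway neurons, had a signal of 156 ± 16.2 in C against 134 ± 14.0 in CMS. That is 14.2% less by value, a log2 ratio of -0.22 with an error of 0.21. Drd5 (NM_013503) binds dopamine with higher affinity than Drd1. It read 66.3 ± 7.79 in C against 78.2 ± 8.79 in CMS, a log2 ratio of 0.24 with an error of 0.23. Both differences were about as large as the error that the scanner software's errors give. That of Drd1 was larger than the SD between spots at its brightness, 0.10, and that of Drd5 smaller, with an SD of 0.26.

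Both Gi-coupled dopamine receptors examined, Drd2 and Drd4, had the higher signal in CMS. Drd2 (NM_010077) is the autoreceptor of dopamine neurons and the receptor of striatal indirect-pathway neurons. Its probe was not well above background in C, at 19.0 ± 4.62, and was so in CMS, at 32.9 ± 5.35. The resulting log2 ratio of 0.79 used the measured C signal and is no bound. The scanner software's errors alone give it an error of 0.42. Drd2 thus rested on 1 dim spot per array. As raw pixel medians, the Drd2 spot read 67 over a local background of 48 in C and 77 over 36 in CMS. Normexp background correction was run with an offset of 50 added to every signal, which by construction draws ratios of dim probes toward 0. After it and quantile normalization the log2 ratio of Drd2 was 0.32, and 0 receptors were past 1.5-fold. Drd4 (NM_007878), which pyramidal neurons and interneurons of the PFC carry, read 63.6 ± 7.88 in C against 80.6 ± 9.30 in CMS. Its log2 ratio was 0.34 with an error of 0.24.

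Markers of striatal projection neurons, the cells richest in Drd1 and Drd2, were read beside these values. Of the 14 listed, 12 had a ratio and 0 were past 1.5-fold, with a median log2 ratio of -0.11. Their signals summed to 24770 in C and 22175 in CMS. Penk, the enkephalin precursor of indirect-pathway neurons, had a log2 ratio of -0.28, and Adora2a, an adenosine receptor that these neurons carry along with Drd2, had -0.18. Neither Isl1 nor Sh3rf2 was well above background on an array. The part of striatal cells in the Drd1 and Drd2 values was not tested. In pooled tissue, fewer cells of a type and less RNA per cell cannot be told apart.

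**Figure D2:**
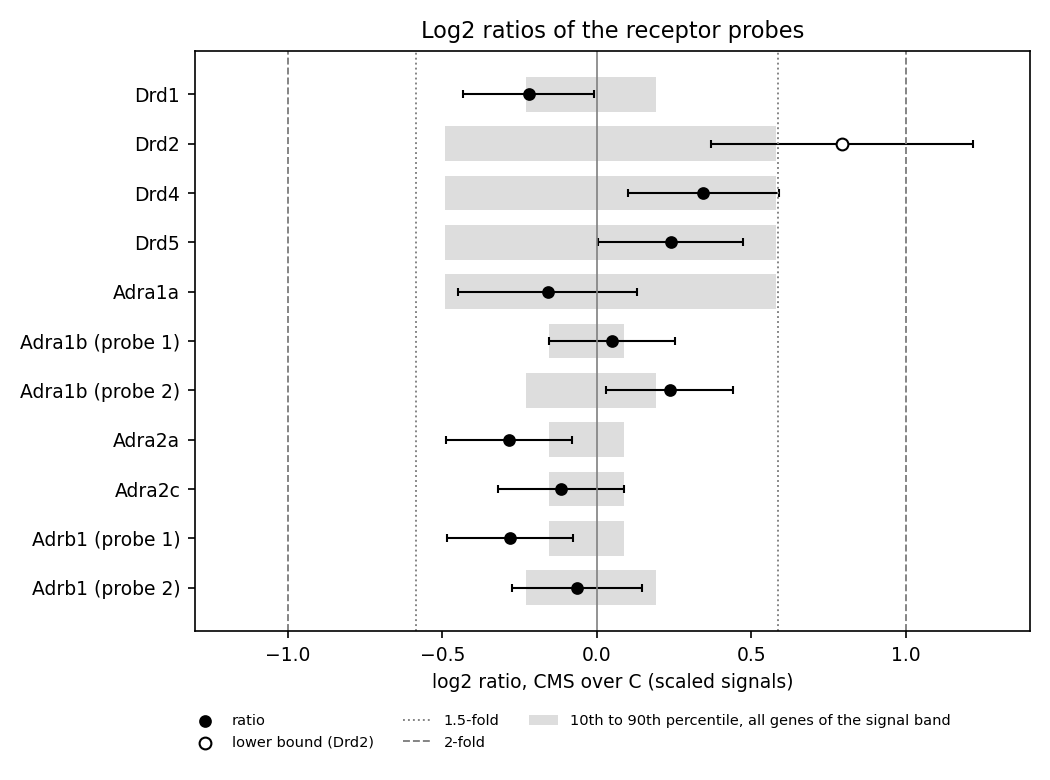
Log2 ratio of CMS over C for each receptor probe (point), with the error that the scanner software's errors give (bar), beside the 10th to 90th percentile of all genes in the same band of mean signal (grey). Drd2, the open point at 0.79, is labelled a lower bound, but its measured C signal was used and it is no bound. It lies past the 1.5-fold line, and Adra2a and the first Adrb1 probe lie below their grey bands.

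Of the adrenergic receptors, 4 of 5 had a log2 ratio below 0 (5 of 5 without scaling of the arrays), and 0 were past 1.5-fold. Adra2a (NM_007417), the Gi-coupled receptor at which guanfacine acts in the PFC, read 1253 ± 125 in C against 1029 ± 103 in CMS. That is 17.8% less by value, a log2 ratio of -0.28 with an error of 0.20. Adra2c (NM_007418), an alpha2 receptor found mainly in the striatum and on nerve endings, read 3061 ± 306 in C against 2824 ± 282 in CMS. Its log2 ratio of -0.12 was smaller in size than its error of 0.20, but larger than the SD between spots at its brightness, 0.06. Adra2a and Adra2c were both below 0, and only Adra2a by more than the error from the scanner software.

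Adrb1 (NM_007419), the main beta receptor of the forebrain and the heart, was read by a pair of probes that differed in size. The brighter probe read 1469 ± 147 in C against 1209 ± 121 in CMS, a log2 ratio of -0.28 with an error of 0.20. The dimmer probe read 162 ± 16.7 in C against 155 ± 16.01 in CMS, a log2 ratio of -0.06 with an error of 0.21. Both probes read lower in CMS, the dimmer one by less than its error.

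The Gq-coupled alpha1 receptors examined, Adra1a and Adra1b, stayed within the error from the scanner software on the probe that stood for the gene. Adra1a (NM_013461) read 43.1 ± 5.95 in C against 38.6 ± 5.57 in CMS, a log2 ratio of -0.16 with an error of 0.29. The brighter probe of Adra1b (NM_007416) read 2159 ± 216 in C against 2235 ± 223 in CMS, a log2 ratio of 0.05 with an error of 0.20 (-0.12 without scaling of the arrays). The dimmer Adra1b probe read 415 ± 41.7 in C against 488 ± 49.0 in CMS, a log2 ratio of 0.24 with an error of 0.20. As with Adrb1, the probes of Adra1b had the same sign and differed in size.

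Adra1b is also the main alpha1 receptor of rodent liver, and hepatocyte markers were far higher in CMS. All 14 of these markers were past 1.5-fold higher and 13 were past 2-fold, with a median log2 ratio of 3.27 (13 past 1.5-fold without scaling). Their signals summed to 10506 in C and 93622 in CMS. The serum protein gene Alb read 1509 in C against 17486 in CMS. The hepatocyte markers were well above background on both arrays. Their part in the Adra1b values was not tested.

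Among genes of similar brightness, Drd2, Adra2a and the brighter Adrb1 probe lay outside the 10th to 90th percentile range, as did the dimmer Adra1b probe. By definition 10% of genes lie beyond that range at each end. For genes with a mean signal of 1000 or more, the 10th and 90th percentiles of the log2 ratio were -0.15 and 0.09. Adra2a and the brighter Adrb1 probe lay below this range, while Adra2c and the brighter Adra1b probe lay inside it. Between 100 and 1000 the percentiles were -0.23 and 0.19, with Drd1 and the dimmer Adrb1 probe inside and the dimmer Adra1b probe above. Under 100 they were -0.49 and 0.58, with Drd4, Drd5 and Adra1a inside and Drd2 above. This places the receptors within 1 pair of arrays and is no test.

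**Figure D3:**
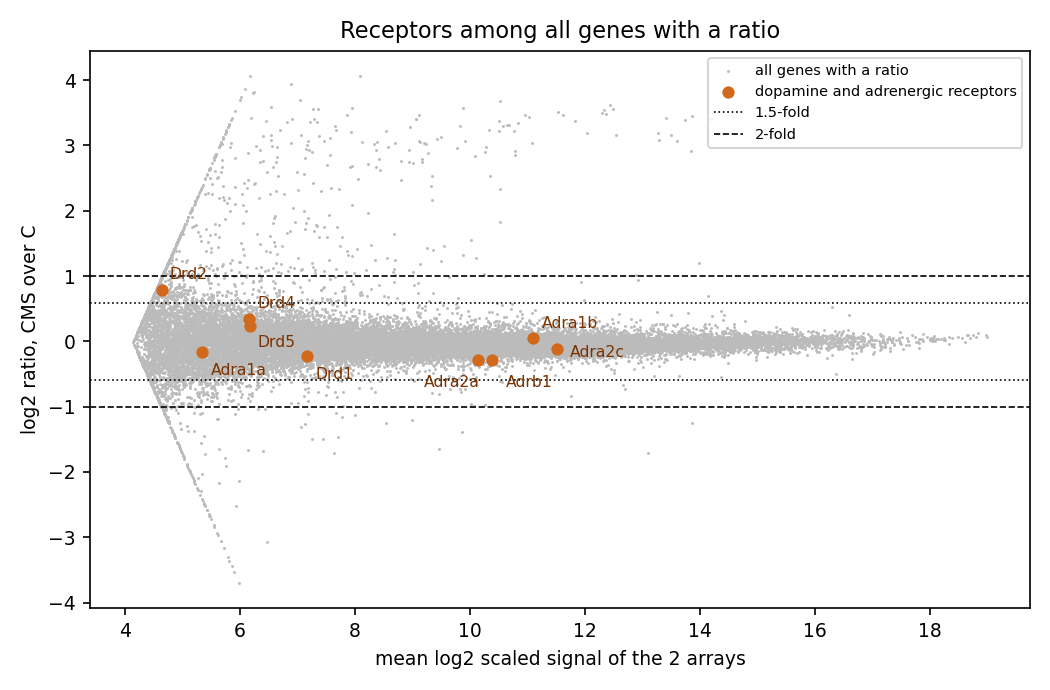
Log2 ratio of CMS over C against the mean log2 scaled signal for all 27119 gene names with a ratio (grey) and for the 9 receptors by the brighter probe (orange). Dotted and dashed lines mark 1.5-fold and 2-fold, and Drd2 is the only receptor beyond a dotted line.

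By ligand, the dopamine receptors had a median log2 ratio of 0.29 over 4 genes and the adrenergic receptors -0.16 over 5. The dopamine median was 0.12 without scaling of the arrays and 0.10 after normexp, and the adrenergic median -0.33 and -0.11. No difference between the ligands was tested. By G protein, the median was -0.22 over the 3 Gs-coupled receptors, 0.11 over the 4 Gi-coupled receptors and -0.05 over the 2 Gq-coupled receptors. The Gi-coupled median was -0.06 without scaling and 0.04 after normexp, and it was -0.12 with both arrays required to be well above background, which leaves out Drd2. Without scaling the Gs-coupled median was -0.39 and the Gq-coupled median -0.23, and after normexp they were -0.14 and -0.02. Each of these 3 classes held ratios of both signs (both Gq-coupled receptors were below 0 without scaling). Of the 4 dopamine receptors 3 had signals under 100, where spots of a probe varied most, and of the 5 adrenergic receptors this held for Adra1a alone. The part of brightness in the medians was not tested. Without scaling, all genes together had a median of -0.20 in place of -0.03.

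The 5 other catecholamine receptors gave no ratio past 1.5-fold. Adra1d, an alpha1 receptor of cortex, read 349 in C against 403 in CMS, a log2 ratio of 0.21. Adra2b, the alpha2 receptor of the thalamus, read 1079 in C against 953 in CMS, a log2 ratio of -0.18. Drd3, a Gi-coupled dopamine receptor, was at background on both arrays. The 4 with a ratio had a median of 0.10 (-0.08 without scaling and -0.04 after normexp).

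Genes that make, carry and break down catecholamines were also within 1.5-fold. Of 13 listed, 10 had a ratio, 7 above 0 and 3 below (1 and 9 without scaling), with a median of 0.05. Th, which makes the dopamine precursor L-DOPA, read 3133 in C against 3250 in CMS, a log2 ratio of 0.05. The noradrenaline transporter Slc6a2, the vesicular transporter Slc18a1 and the organic cation transporter Slc22a3 were at background on both arrays.

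Downstream of the receptors, no listed gene of G proteins, second messengers, receptor regulation or channels was past 1.5-fold. Of 10 G protein alpha subunits 9 had a ratio, with a median of -0.03, and Gnas, which encodes Gs, read 53538 in C against 53664 in CMS. Of 13 adenylyl cyclases and beta-type phospholipases C 12 had a ratio, 1 above 0 and 11 below, with a median of -0.10. Their lowest value was -0.43, that of Adcy4, which was past 1.5-fold without scaling, and the brightest probe, that of Adcy1, was at -0.05. The 16 genes of protein kinase A, DARPP-32 and phosphodiesterases ran from -0.29 to 0.17, 7 above 0 and 9 below (11 and 5 with scaling to the 75th percentile). Ppp1r1b encodes DARPP-32, the phosphatase inhibitor that protein kinase A phosphorylates after Drd1 is stimulated, and had a log2 ratio of 0.09. The 18 receptor kinases, arrestins, RGS proteins and receptor partners had a median of -0.07 and ran from -0.26 to 0.14. Of 8 HCN and GIRK channels, which Gi-coupled receptors regulate, 6 had a ratio, 3 above 0 and 3 below.

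**Figure D4:**
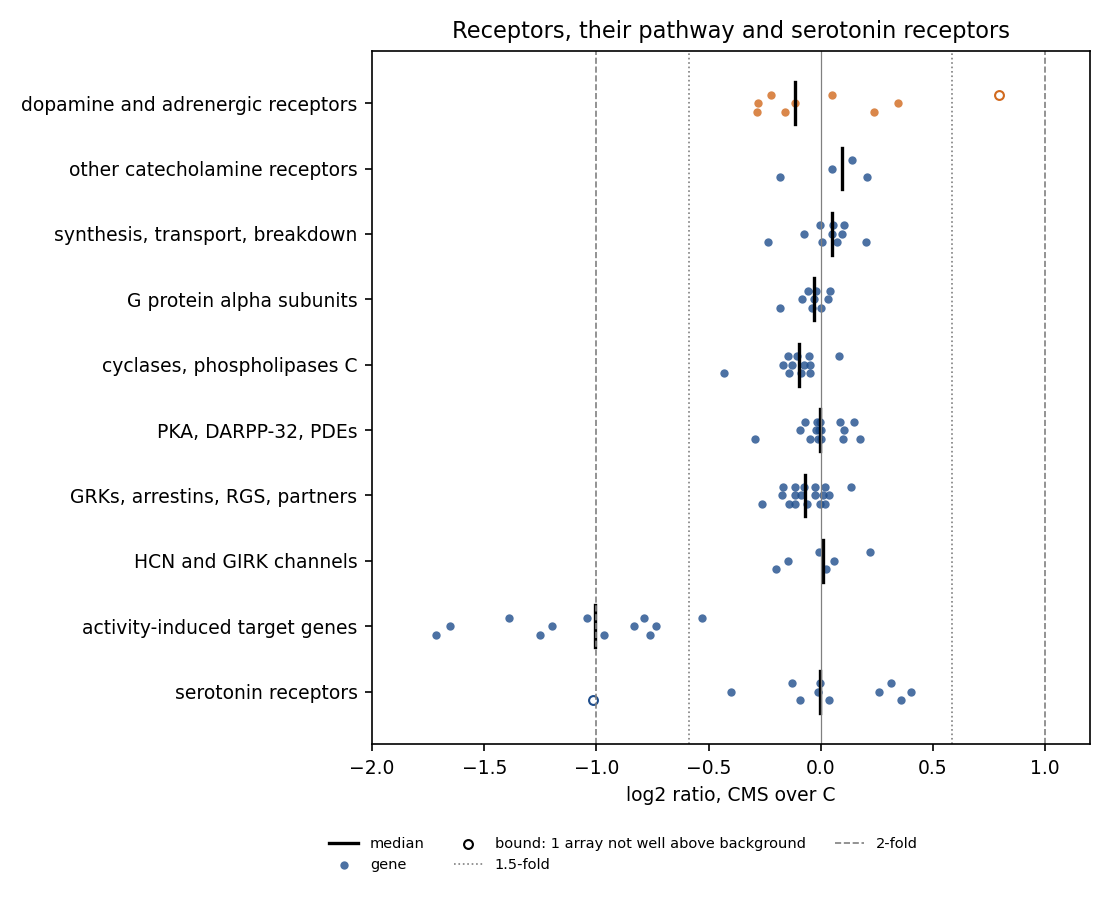
Log2 ratio of CMS over C for each gene with a ratio (points) and the median (black line) in the receptor list (orange) and in each list of pathway genes and serotonin receptors (blue). The 12 activity-induced target genes lie between -1.72 and -0.53, and the other lists have medians between -0.12 and 0.10. The open points, Drd2 and Htr4, are labelled bounds, but their measured signals were used and they are no bounds.

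Activity-induced genes, which neurons transcribe when calcium or cyclic AMP rises, stood apart from the other pathway lists. All 12 had log2 ratios below 0, 11 were past 1.5-fold lower and 6 past 2-fold lower, with a median of -1.004. Without scaling 12 were past 1.5-fold lower and 8 past 2-fold lower, and after normexp 10 and 5. Over all genes 2.09% were past 1.5-fold lower and 0.59% past 2-fold lower. Arc, a regulator of synaptic glutamate receptors, read 15897 in C against 4838 in CMS, a log2 ratio of -1.72. The transcription factors Egr2, Fos, Nr4a1 and Junb had log2 ratios of -1.65, -1.39, -1.25 and -1.04, and Btg2, an antiproliferative gene, had -1.198. Between 1.5-fold and 2-fold lower lay Dusp1, a phosphatase of MAP kinases, at -0.97, and Npas4, Fosb, Ier2 and Egr4, at -0.83, -0.79, -0.76 and -0.73. Egr1 was the gene inside 1.5-fold, at -0.53, though past it without scaling. This list was chosen with its decline known, so its direction is no independent evidence. Receptors for catecholamines are among several inputs to these genes, and no link between the receptors and this list was tested.

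The serotonin receptors, the other large family of monoamine receptors in the PFC, served for comparison. Of 14 listed, 11 had a ratio, 5 above 0 and 6 below (7 and 4 with scaling to the 75th percentile). In each family 1 gene was past 1.5-fold, and in both it was a gene not well above background on 1 array. Htr4, a Gs-coupled serotonin receptor, read 37.5 in C against 18.6 in CMS and was 2.02-fold lower in CMS. With scaling to the 75th percentile Htr4 was under 2-fold, and 0 serotonin receptors were past 1.5-fold after normexp. No difference between the families was tested.

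The labelled tissue was checked with markers. All 10 markers of cortical layers and all 10 neuronal markers were well above background on both arrays, with median log2 ratios of -0.01 and -0.04 and 0 past 1.5-fold. Tbr1, a transcription factor of deep-layer neurons, read 15300 in C against 15186 in CMS. Markers of astrocytes, oligodendrocytes, microglia and brain endothelium, 8 genes each, had medians of 0.01, -0.15, 0.06 and -0.05 (each below 0 without scaling), also with 0 past 1.5-fold. Apart from the hepatocyte list, marker lists held at most 1 gene past 1.5-fold. Of 10 thalamic markers 9 had a ratio, with a median of -0.02, and Gbx2 was at least 2.38-fold higher in CMS (0 thalamic markers were past 1.5-fold after normexp). Of 8 erythroid markers 4 had a ratio, with a median of 0.45 and Slc4a1, the anion exchanger of red cells, at 0.62, while Epb42, a membrane protein of red cells, was at background on both. Choroid plexus markers had a median of 0.11 over 7 genes (-0.06 without scaling and 0.25 with the mean of all probes). The part of these cell types in the receptor values was not tested.

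**Figure D5:**
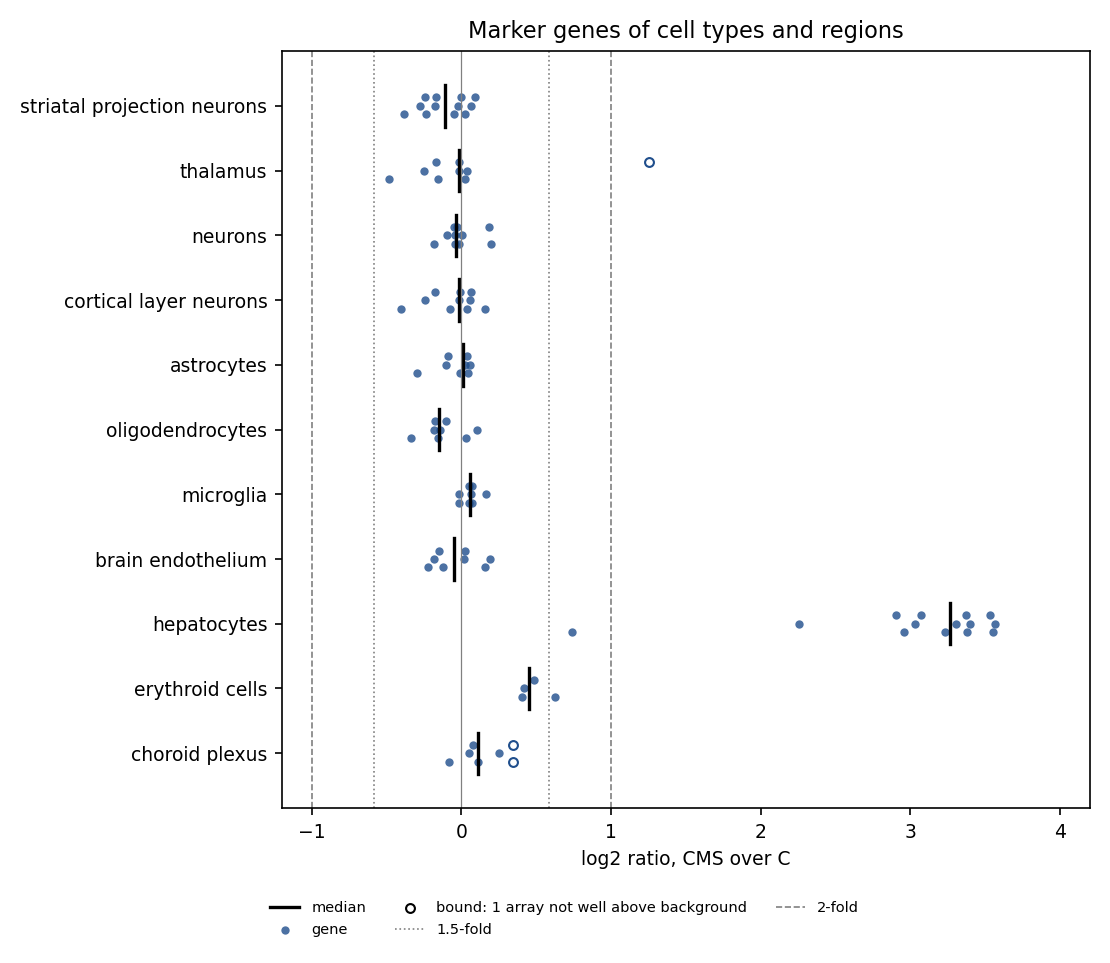
Log2 ratio of CMS over C for marker genes of cell types and brain regions (points) with the median of each list (black line). Hepatocyte markers have a median of 3.27, and the lists of neurons, glia and endothelium have medians between -0.15 and 0.06. Open points are labelled bounds, which holds for Gbx2 and Slc4a5. Otx2, also open, used its measured C signal and is no bound.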

How the data were processed

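RNA pools of the PFC were hybridized to 2 single-color arrays on 1 slide, and precision is limited by the number of arrays. The authors obtained spot values with Agilent Feature Extraction 10.10.1.1. The deposited intensities had local background removed and a spatial trend corrected by that software, and were linear and unscaled. The deposited series table holds these intensities times 1 factor per array, 1.80 for C and 2.05 for CMS, so its scale and direction are settled and it is not centred. Its column medians were 149 and 153.

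Control spots and outlier spots (130 for C, 133 for CMS) were left out. Spots of a probe were averaged, and a probe counted as well above background if a share of 0.5 or more of its spots did. Each array was brought to a mean of 2500. Dim probes took whichever was higher, their signal or the lowest one well above background. Accessions without versions were named through the RefSeq table of GRCm38.p6, which named 30740 of 59305 spots. The array design refers to mm9, and none of its coordinates were used. Where a gene had several probes, that with the highest mean log2 signal stood for it.

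The receptors and gene lists were chosen with earlier results of these data known. Named were all receptors, the genes of the pathway lists past 1.5-fold and otherwise up to 2 of the brightest per list. Adra1d, Adcy4, Ppp1r1b, Adora2a, Egr1, Alb and the genes not well above background were named after their values were seen, as were the promoter motifs. Results for some genes of these lists are not reported here. Genes of like pattern were not sought, since a pattern over 2 arrays is a single ratio. Calculations ran in Python 3.11.15 (pandas 2.3.3, numpy 2.4.6) and R 4.3.3 (limma 3.58.1 for normexp, offset 50), and the calling of genes was tested on simulated arrays. Alternatives were other scalings, normexp, the deposited table, other treatments of dim probes and outliers, and the mean of all probes.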

Additional observations from a re-analysis of the deposited data

How the results depend on the processing

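No replicate could be left out, and no paired analysis was possible because each group is 1 array. Under the 11 alternatives 0 receptors were past 2-fold. The count past 1.5-fold, 1 gene, was 0 after normexp and quantile normalization, and 0 with probes required to be well above background on both arrays, which removes Drd2 by construction. The median of the receptors, -0.12, was -0.29 with no scaling and -0.046 after normexp, for causes not tested in the latter case. The number well above background on both arrays stayed at 8 with outlier spots kept. Of 98 values of single receptors under the alternatives, 86 moved by less than the SD between spots, 0.13. Of the 12 others 9 came with no scaling and 3 with normexp, those of Drd2, Drd4 and Drd5. Adra1b ran from -0.12 to 0.14, and every other receptor kept its sign under the alternatives that gave it a value. Drd2 ran from 0.32 to 0.81 and Adra2a from -0.46 to -0.20. Over all genes, 699 were past 2-fold (77.1% of them higher). The count was 690 (62.9%) with no scaling, 303 (87.5%) after normexp, 1109 without a bound for dim probes and 338 with both arrays required. Past 1.5-fold were 1573 (63.9%), against 1991 (36.4%) with no scaling, 564 (78.0%) after normexp and 824 with both arrays required. Signal over background limits Drd2 most, and next Adra1a, Drd4 and Drd5, with signals under 100.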
